A study of Mus musculus with 2 samples.

Results

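The Notch genes described here are 10 in number: 4 receptors (Notch1, Notch2, Notch3 and Notch4), 3 ligands (Dll4, Jag1 and Jag2) and 3 target genes (Hes1, Hey1 and Heyl). They were taken by symbol, without regard to their values, from the 17758 genes of a single-cell expression table and the 16906 genes of a bulk table, and all 10 were present in each. The study, by its title, concerned nerves, myofibroblasts and the formation of alveoli in the mouse lung. The single-cell table held sorted cells of the peripheral lung of wild-type mice at postnatal day 3, prepared with the 10x Chromium 3′ chemistry, version 3. The bulk table held PDGFRa+ cells sorted at the same age from peripheral lung of Pdgfra-H2BGFP mice, which carry a nuclear green fluorescent protein reporter at the Pdgfra locus. Both were described as control lungs. With 1 sample of each kind there was no replicate, so no p-value is given, and every difference below is a difference within a single library. Whether animals were pooled, and which gate sorted the single cells, is not stated in the labels.

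Notch signalling passes between touching cells. A ligand on 1 cell, of the Delta-like or Jagged type, pulls on a Notch receptor on its neighbour, proteases then cut the receptor, and the freed intracellular part enters the nucleus, where it joins the DNA-binding protein RBPJ and switches on targets such as the Hes and Hey repressor genes. In blood vessels the pathway is known for setting arterial against venous identity, for holding back endothelial sprouting through Dll4, and for the investment of vessels by mural cells, where Notch3 is the characteristic receptor. Jag1 on endothelium is a known partner of Notch3 on smooth muscle.

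The stretches of DNA just upstream of Dll4, Notch4 and Notch3 are shown as examples. Most of the summed values of Dll4 and Notch4 came from endothelial-like cells, and most of those of Notch3 from mural-like cells. Jag2 also had most of its summed values in endothelial-like cells, and its stretch is not shown. The stretches shown are RefSeq sequences of build mm10 (GRCm38), read 5′ to 3′ on the gene's own strand and ending before the gene's annotated start. The Notch4 stretch is 223 bases long, because GENCODE places the start of the gene inside the 250 bases upstream of the RefSeq start. Capitals mark GGAAG or its reverse complement CTTCC, the letters at the core of sites for ETS factors, a family known for its part in endothelial gene control.
Dll4 chr2:119325534-119325783 (+): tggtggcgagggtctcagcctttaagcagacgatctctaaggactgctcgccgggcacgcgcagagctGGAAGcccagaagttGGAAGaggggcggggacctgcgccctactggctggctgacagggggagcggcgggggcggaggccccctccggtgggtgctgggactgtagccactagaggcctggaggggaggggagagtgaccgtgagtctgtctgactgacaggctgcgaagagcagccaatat
Notch4 chr17:34564045-34564267 (+): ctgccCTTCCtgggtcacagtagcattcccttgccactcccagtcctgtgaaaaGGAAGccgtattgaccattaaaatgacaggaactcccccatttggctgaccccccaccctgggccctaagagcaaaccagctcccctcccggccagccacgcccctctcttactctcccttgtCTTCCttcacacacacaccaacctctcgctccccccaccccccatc
Notch3 chr17:32166891-32167140 (-): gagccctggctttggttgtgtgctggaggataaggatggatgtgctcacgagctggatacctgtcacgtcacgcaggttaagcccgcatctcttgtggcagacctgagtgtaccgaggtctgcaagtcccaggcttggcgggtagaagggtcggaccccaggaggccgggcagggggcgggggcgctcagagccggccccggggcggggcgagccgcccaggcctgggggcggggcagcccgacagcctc
GGAAG on either strand occurred 2 times upstream of Dll4, 3 times upstream of Notch4 and 0 times upstream of Notch3. In the 250 bases upstream of the RefSeq start it also occurred 1 time for Notch2 and 0 times for Notch1, Jag1 and Jag2. Of 32851 mouse promoters 64.1% hold it in the same 250 bases. For Notch1 and Jag2 all of those bases lie within the gene as GENCODE places it, and for Jag1 and Notch2 part of them does. The core letters of an RBPJ site, TGGGAA on either strand, occurred 0 times in the full 250 bases upstream of the RefSeq start of each of these 7 members, against 21.6% of promoters. The longer GTGGGAA, which contains that core, is held by 5.42% of promoters. These are matches of letters in a short window and describe no binding. Promoters of Hes1, Hey1 and Heyl are not shown.

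In mm10 (GENCODE M21), Notch1 lies at chr2:26457903-26516663 on the minus strand, Notch2 at chr3:98013527-98150361 on the plus strand, Notch3 at chr17:32120820-32166852 on the minus strand and Notch4 at chr17:34564268-34588503 on the plus strand. Dll4 lies at chr2:119325784-119335962 (plus), Jag1 at chr2:137081456-137116644 (minus) and Jag2 at chr12:112907819-112929776 (minus). Hes1 lies at chr16:30064384-30067796 (plus), Hey1 at chr3:8663359-8667256 (minus) and Heyl at chr4:123233556-123249875 (plus). Exons of Notch1 overlap those of 0610009E02Rik and Gm13568 on the opposite strand, exons of Dll4 overlap Gm14207 on the opposite strand, exons of Notch3 overlap Gm17276, an antisense gene, and exons of Notch2 overlap Gm42820 on the same strand. The strand setting of the bulk counting is not stated, so the bulk levels of Notch1, Dll4 and Notch3 carry that uncertainty. The overlap of Notch2 is on its own strand, and its levels carry that uncertainty under any strand setting.

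Of 11306 deposited cells, 10199 were kept and grouped into 36 clusters, which were named from marker genes. The Notch genes were left out of both steps. There were 1027 endothelial-like cells, 373 mural-like cells, 1687 fibroblast-like cells and 6475 immune-like cells, and the last made up 63.5% of those kept. The values were whole-number UMI values already corrected for depth, so that cell totals spanned only 3859 to 6899. The number of genes detected per deposited cell ran from 709 to 3760 with a median of 2012, and the median of the kept cells was 2050. It is used below as a measure of depth. How far it reflects depth and how far the type of cell was not tested. A level below is in CPM: the gene's summed values in a class per 1000000 summed values there. A share of cells is given with its exact (Clopper-Pearson) 95% interval, which covers counting error only. Where 0 cells had a value, the largest share allowed is given instead as 3 cells of the class. A difference between classes is log2((CPM in the first + 1)/(CPM in the second + 1)), and a gene was counted as higher or lower when this reached 1 or -1.

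Of the 10 genes, 4 had most of their summed values in endothelial-like cells, 2 in mural-like cells and 2 in immune-like cells. Endothelial-like cells held 89.3% of all summed Dll4 values, 82.6% of Notch4, 77.0% of Hey1 and 72.9% of Jag2, although they were 10.1% of the kept cells. Mural-like cells, 3.66% of the kept cells, held 76.7% of Notch3 and 74.2% of Heyl. Immune-like cells, 63.5% of the kept cells, held 74.0% of Notch2, 51.6% of Notch1 and 43.5% of Jag1. For Notch1 and Jag1 this was less than the immune-like share of cells. No family held most of Hes1, with 41.0% in endothelial-like, 19.8% in fibroblast-like, 18.5% in immune-like and 7.21% in mural-like cells.

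**Figure D1:**
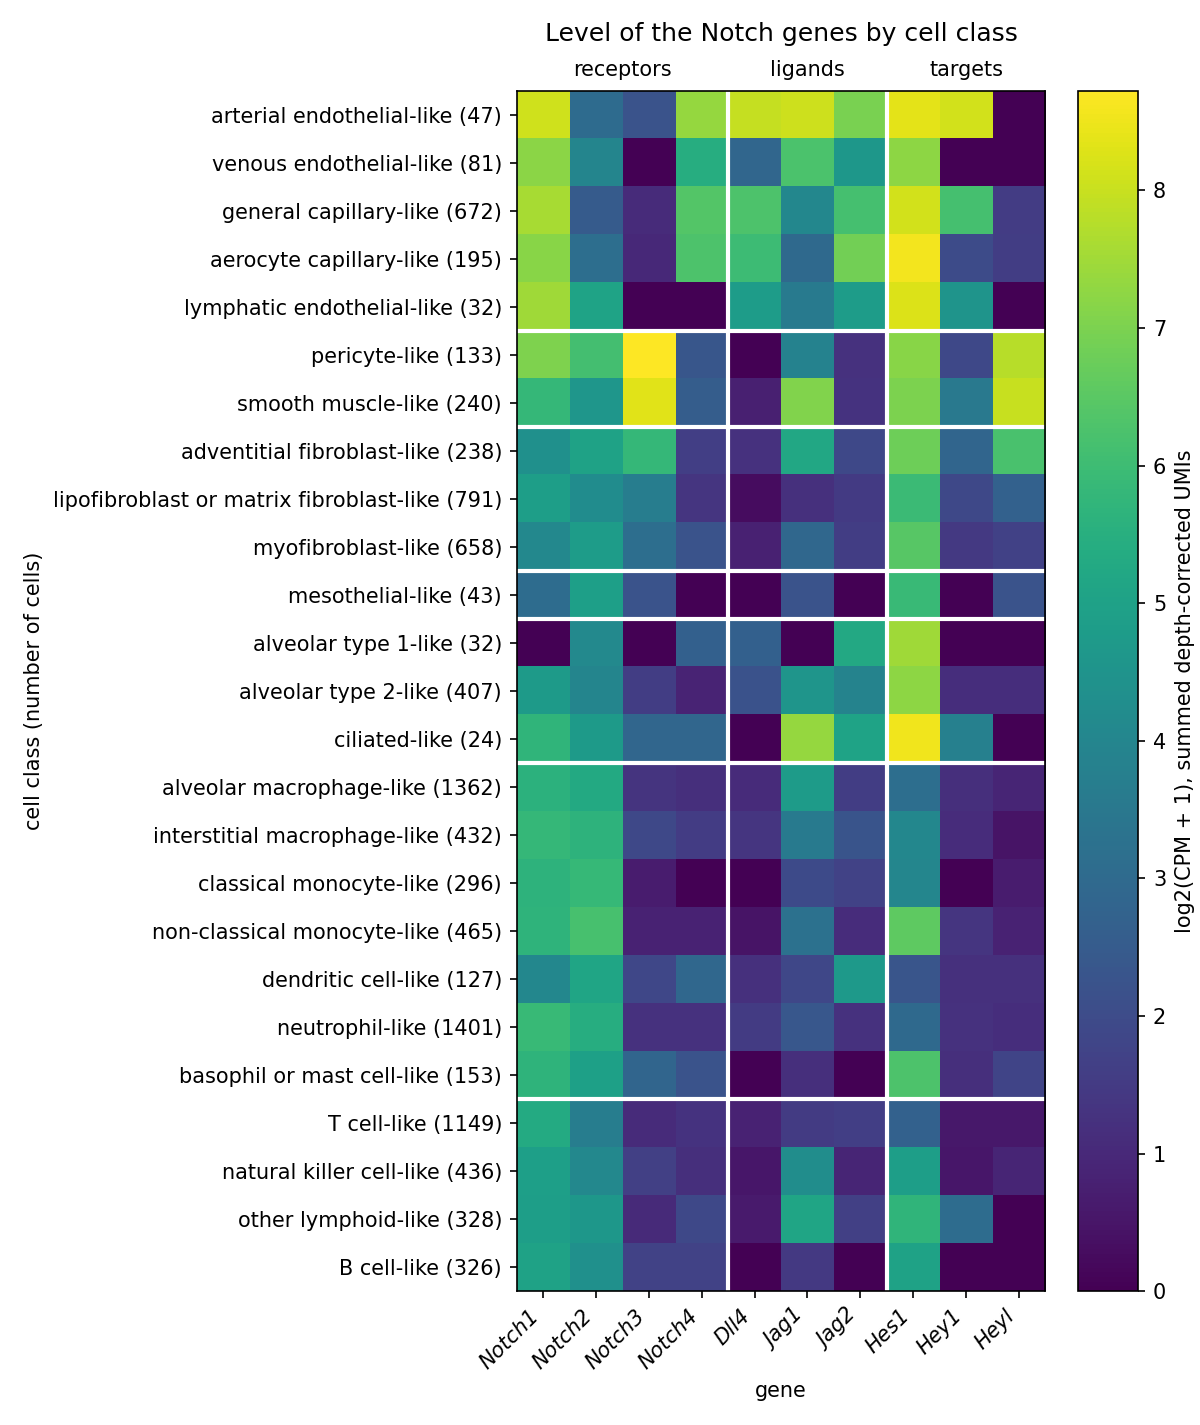
Level of the 10 Notch genes (columns, as receptors, ligands and targets) in 25 cell classes (rows, with the number of cells), as log2(CPM + 1) of summed depth-corrected UMI values from 1 library. Dll4, Notch4, Jag2 and Hey1 are brightest in the arterial-like row at the top, and Notch3 and Heyl in the pericyte-like and smooth muscle-like rows. Not every endothelial-like row is bright. Hey1 is at 0 CPM in venous-like and 2.99 in aerocyte-like cells, Dll4 at 6.35 in venous-like and Notch4 at 0 in lymphatic-like cells. Notch2 ranges from 12.1 CPM in T-like to 71.9 CPM in non-classical monocyte-like cells within the immune-like rows.

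Against all other kept cells, 6 of the 10 members were higher in endothelial-like cells: Dll4 with a log2 ratio of 5.27, Notch4 with 4.83, Hey1 with 4.37, Jag2 with 4.24, Hes1 with 2.64 and Notch1 with 2.14. Over all 15397 genes measured in this comparison, 10.3% were higher. Notch3 (-3.32), Heyl (-2.48) and Notch2 (-2.01) were lower, and 19.1% of all genes were lower. Jag1, with 0.97, stopped just short of the threshold. The median of the 10 members was 2.39, and that of all genes -0.02. All 6 endothelial genes were still past the threshold when immune-like cells were left out of the other side.

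In mural-like cells Notch3 (6.08), Heyl (5.81) and Jag1 (2.65) were higher, and 10.3% of all genes were. Dll4 (-2.73) and Jag2 (-2.29) were lower, on 1 and 3 summed values, and 17.1% of all genes were lower. With a pseudocount of 10 CPM neither of these was past the threshold, at -0.84 and -0.86. Hes1, with 0.96, stopped just short. In fibroblast-like cells 0 members were higher, while 20.1% of all genes were. The 6 that were lower were Dll4 (-2.78), Jag2 (-2.12), Notch4 (-1.78), Notch1 (-1.44), Hey1 (-1.36) and Jag1 (-1.06), beside 16.7% of all genes. With a pseudocount of 10 CPM only Notch1 of these 6 stayed past the threshold. In immune-like cells 0 members were higher, beside 11.6% of all genes, and 8 were lower, beside 30.2%. Of these Jag1 was nearest the threshold (-1.04) and had -0.97 when predicted doublets were kept. Notch2 (0.75) and Notch1 (-0.62) were the receptors that lay within the threshold there.

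**Figure D2:**
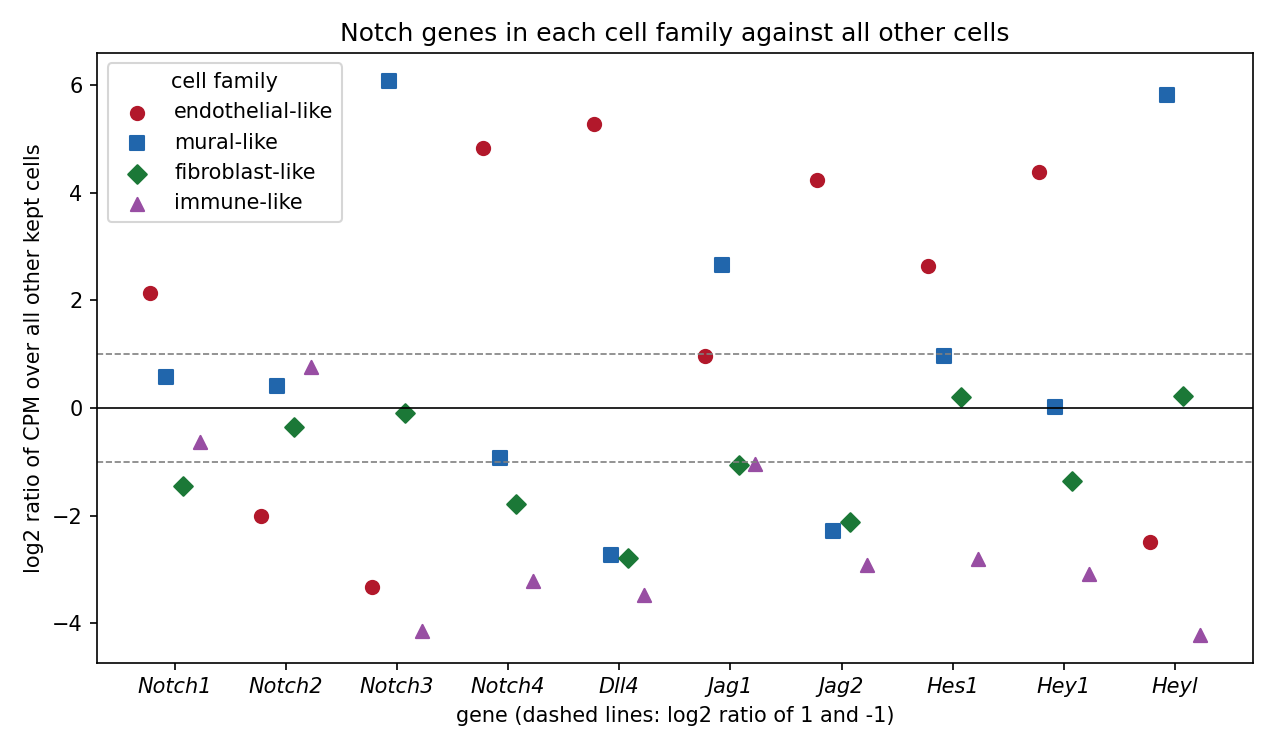
Log2 ratio of CPM (vertical axis) of each Notch gene in 4 cell families against all other kept cells of the same library, with dashed lines at 1 and -1. Endothelial-like points stand above the upper line for 6 genes, mural-like points for Notch3, Jag1 and Heyl, and no fibroblast-like or immune-like point does.

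Notch1, a receptor used in many tissues, had its highest levels in endothelium. It stood at 276 CPM in arterial-like, 191 in general capillary-like, 179 in lymphatic-like, 148 in venous-like and 145 in aerocyte-like cells. In arterial-like cells 80.9% (66.7 to 90.9) had a value. Venous-like cells, with 54.3% (42.9 to 65.4), lay below the arterial interval, while the 4 other endothelial intervals overlapped each other. Pericyte-like cells came next with 129.6 CPM and 51.9% of cells (43.1 to 60.6), which overlaps aerocyte-like cells at 47.7% (40.5 to 54.9). The 9 pan-endothelial markers summed to 211 CPM in pericyte-like cells, against 5905 to 12727 in the 4 blood endothelial-like classes. Smooth muscle-like cells held less, 55.4 CPM and 25.8% (20.4 to 31.9). Neutrophil-like cells (58.1 CPM) and interstitial macrophage-like cells (55.3 CPM) had the highest levels of the immune-like classes, and fibroblast-like classes lay between 15.7 and 28.5 CPM.

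Notch2 ran the other way. Its highest levels were in non-classical monocyte-like cells (71.9 CPM) and pericyte-like cells (68.9 CPM), whose shares of 31.4% (27.2 to 35.8) and 30.1% (22.4 to 38.6) cannot be told apart. Classical monocyte-like cells had 56.1 CPM and interstitial macrophage-like cells 48.3 CPM. The lowest level of any class was that of general capillary-like cells, 4.64 CPM in 2.38% of cells (1.37 to 3.84), at a median of 2185.5 genes per cell against 1963 in non-classical monocyte-like cells. Which class stood highest for Notch2 depended on the clustering.

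Notch3, the mural receptor, reached 423 CPM in pericyte-like cells and 325 CPM in smooth muscle-like cells. A value was present in 83.5% (76.0 to 89.3) and 77.5% (71.7 to 82.6) of these cells, and the intervals overlapped. Adventitial fibroblast-like cells followed at 55.6 CPM and 27.3% (21.8 to 33.4), clear of both mural-like classes. Lipofibroblast or matrix fibroblast-like cells had 12.0 CPM and myofibroblast-like cells 7.99 CPM. In general capillary-like cells, at a depth like that of pericyte-like cells (medians of 2185.5 and 2230 genes), only 0.446% (0.0922 to 1.30) had a value. Venous-like cells had a value in 0 of 81, which allows a share of up to 3.70% by the limit of 3 cells.

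Notch4, a receptor known from endothelium, was ordered arterial-like (162 CPM), general capillary-like (83.3), aerocyte-like (77.8) and venous-like (42.4). Arterial-like cells had a value in 66.0% (50.7 to 79.1), above general capillary-like cells at 31.5% (28.0 to 35.2) and aerocyte-like cells at 28.2% (22.0 to 35.1), which overlapped each other. Lymphatic-like cells had a value in 0 of 32, allowing up to 9.38%. Every class outside endothelium stood at 6.48 CPM or less. In alveolar macrophage-like cells, at 2503.5 genes per cell, the share was 0.734% (0.353 to 1.35).

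Dll4, the ligand of arterial and sprouting endothelium, was also mainly endothelial. It stood at 249.8 CPM in arterial-like, 78.1 in general capillary-like and 62.9 in aerocyte-like cells, and at 27.2 CPM in lymphatic-like cells on 5 summed values. Shares were 72.3% (57.4 to 84.4) in arterial-like, 25.4% (22.2 to 28.9) in general capillary-like and 21.5% (15.99 to 28.0) in aerocyte-like cells, against 3.70% (0.770 to 10.4) in venous-like cells. Pericyte-like cells had a value in 0 of 133, allowing up to 2.26%, and lipofibroblast or matrix fibroblast-like cells in 0.126% (0.00320 to 0.702).

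Jag1, the Jagged ligand linked to mural cells, was higher in arterial-like and venous-like than in capillary-like cells, and was also high outside endothelium. Arterial-like cells had 268 CPM, ciliated-like cells 161, smooth muscle-like cells 135 and venous-like cells 76.3. Then came adventitial fibroblast-like cells with 36.4 CPM, a lymphoid class led by Il5, Il17a and gamma-delta T cell receptor genes with 34.3, and alveolar macrophage-like cells with 26.6. General capillary-like cells had 15.6 CPM, pericyte-like cells 13.5 and aerocyte-like cells 6.98. The share in smooth muscle-like cells, 49.6% (43.1 to 56.1), was clear of that in pericyte-like cells, 5.26% (2.14 to 10.5). In lipofibroblast or matrix fibroblast-like cells it was 0.632% (0.206 to 1.47), at medians of 2403, 2230 and 2366 genes per cell.

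Jag2 took another pattern, with capillaries among its leading classes. Arterial-like (125 CPM) and aerocyte-like cells (116 CPM) had shares of 38.3% (24.5 to 53.6) and 38.5% (31.6 to 45.7), which cannot be told apart. General capillary-like cells stood at 71.0 CPM and 28.1% (24.8 to 31.7), and venous-like cells at 23.3 CPM and 11.1% (5.21 to 20.05). Smooth muscle-like cells, at 1.40 CPM, had a value in 0.833% (0.101 to 2.98), near the 1.01% (0.438 to 1.98) of lipofibroblast or matrix fibroblast-like cells. The Jagged ligands thus divided in smooth muscle-like cells, which had Jag1 in 49.6%.

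Hes1 is a target shared by many signals. All 5 endothelial-like classes stood between 150.4 and 382 CPM, with aerocyte-like cells at the top, and shares from 48.1% (36.9 to 59.5) in venous-like to 66.0% (50.7 to 79.1) in arterial-like cells overlapped. Pericyte-like cells had 143 CPM, smooth muscle-like cells 127 and adventitial fibroblast-like cells 110.5. Of the immune-like classes non-classical monocyte-like cells had the highest level, 94.3 CPM in 29.0% of cells (24.9 to 33.4). Basophil or mast cell-like cells followed with 77.0 CPM in 10.5% (6.10 to 16.4), and their clusters differed, as given under Other observations. Alveolar macrophage-like cells had 7.95 CPM and a value in 4.33% (3.31 to 5.55).

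Hey1, an arterial target, stood at 279 CPM in arterial-like cells, where 70.2% (55.1 to 82.7) had a value. General capillary-like cells had 69.9 CPM and 22.9% (19.8 to 26.3). Lymphatic-like cells had 21.7 CPM on 4 summed values, and no other class passed 12.9 CPM. Venous-like cells had a value in 0 of 81, and aerocyte-like cells in 1.54% (0.318 to 4.43).

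Heyl, its relative, showed the mural pattern of Notch3. Smooth muscle-like cells had 251 CPM and pericyte-like cells 223 CPM, in 70.8% (64.6 to 76.5) and 63.9% (55.1 to 72.1) of cells, with overlapping intervals. The level in adventitial fibroblast-like cells was 73.4 CPM, and 28.6% (22.9 to 34.8) of them had a value. No other class passed 5.56 CPM, and in general capillary-like cells the share was 0.744% (0.242 to 1.73). Hey1 and Heyl thus lay in different families: Hey1 stood at 10.5 CPM in smooth muscle-like and 2.70 in pericyte-like cells.

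The endothelial classes were set against each other. Between aerocyte-like and general capillary-like cells, the paired capillary types of the alveolus, 2 of 8 measured members differed by the threshold, and 19.5% of all genes did. Hey1 was lower in aerocyte-like cells (-4.15, on 3 summed values), and so was Jag1 (-1.05, on 7), which had -0.92 at a finer clustering and -0.59 with a pseudocount of 10 CPM. The share of cells with Hey1 was clear between the classes, while Jag1 shares of 3.59% (1.46 to 7.26) and 7.14% (5.31 to 9.36) overlapped. Aerocyte-like cells had fewer genes per cell, with a median of 1902 against 2185.5, and the part of depth in these differences was not tested. Jag2 (0.70), Notch2 (0.67), Hes1 (0.44), Notch1 (-0.40), Dll4 (-0.31) and Notch4 (-0.10) lay within the threshold. General capillary-like cells came from a cluster of 529 cells and a dividing cluster of 143 led by genes such as Cenpf. Hey1 stood at 79.3 and 38.2 CPM in them, Dll4 at 83.9 and 58.6, and both Hey1 values exceeded the 2.99 CPM of aerocyte-like cells.

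Arterial-like and venous-like cells together differed from capillary-like cells in 2 of 8 measured members, Jag1 (3.32) and Notch2 (1.04), where 17.1% of all genes differed. Notch2 fell short of the threshold under 4 alternatives, from 0.52 to 0.91. Pooling hid opposite values, so the 2 large-vessel classes were also compared apart, a choice made after their levels were seen. Arterial-like over venous-like cells, 6 of 7 measured members were higher, beside 8.57% of all genes. Hey1 was at least 43.9-fold higher in arterial-like cells, taking 3 values as the floor for the venous-like class. Jag2 (2.37), Notch4 (1.91), Jag1 (1.80) and Hes1 (1.13) were also higher, as was Dll4, whose shares are given above. Notch1 had 0.89. The classes had like depth, with medians of 2475 and 2449 genes.

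Set against capillary-like cells, arterial-like cells were higher in Jag1 (4.19), Hey1 (2.31) and Dll4 (1.73), and 12.0% of all genes were higher. Venous-like cells were higher in Jag1 (2.39) and Notch2 (1.32, on 7 summed values), beside 7.83% of all genes. Notch2 shares of 7.41% (2.77 to 15.4) in venous-like and 2.38% (1.37 to 3.84) in general capillary-like cells overlapped. Venous-like cells were lower in Dll4 (-3.37, on 3 summed values), Jag2 (-1.75), Hes1 (-1.01) and Hey1, beside 11.8% of all genes. Capillary-like cells had at least 8.74-fold more Hey1 than the venous-like floor. Jag1 was thus higher than in capillary-like cells in both classes, and within them higher in arterial-like cells. Dll4, Hey1 and Jag2 were lower in venous-like than in capillary-like cells. Arterial-like cells numbered only 47 and venous-like cells 81, and in a clustering of every deposited cell they were not resolved.

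**Figure D3:**
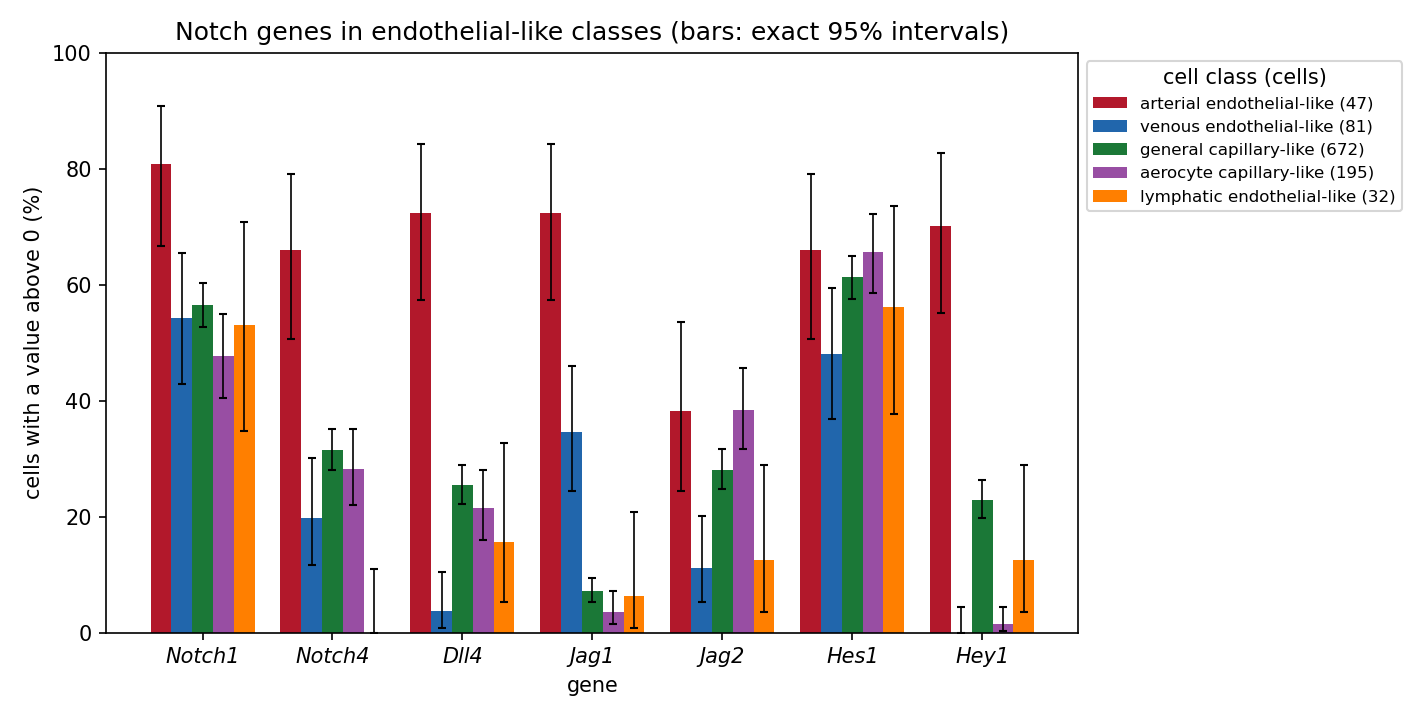
Share of cells with a value above 0 (vertical axis, percent) for 7 Notch genes in 5 endothelial-like classes, with exact 95% intervals from counting error in 1 library. Arterial-like bars are highest for Dll4, Jag1 and Hey1, at 72.3%, 72.3% and 70.2%, venous-like cells lack Hey1 but have Jag1 in 34.6%, and aerocyte-like bars are near 0 for Hey1.

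Mural classes shared Notch3 and Heyl and differed in their ligand. Between pericyte-like and smooth muscle-like cells, 3 of 6 measured members differed, and 20.7% of all genes did. Jag1 was lower in pericyte-like cells (-3.23), and Notch2 (1.53) and Notch1 (1.21) were higher. Notch3 (0.38), Hes1 (0.17) and Heyl (-0.17) lay within the threshold. The share with Notch2 was 30.1% (22.4 to 38.6) in pericyte-like and 11.7% (7.89 to 16.4) in smooth muscle-like cells. Pericyte-like cells expressed 12 of 13 pericyte markers above 10 CPM, and smooth muscle-like cells 11 of 12 smooth muscle markers.

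Among fibroblast-like cells the adventitial class had the highest levels of Notch3, Heyl, Jag1 and Hes1, and the lipofibroblast or matrix class that of Notch1 (28.5 CPM against 19.9 in the adventitial class). Myofibroblast-like cells differed from the other fibroblast-like cells in 2 of 9 measured members, with lower Heyl (-2.83) and Notch3 (-1.40), where 16.5% of all genes differed. With a pseudocount of 10 CPM Notch3 had -0.86. In a comparison chosen after the levels were seen, adventitial fibroblast-like cells were higher than lipofibroblast or matrix fibroblast-like cells in Jag1 (4.001), Heyl (3.50) and Notch3 (2.12), beside 9.58% of all genes. Their pericyte markers summed to 537 CPM with Higd1b and Trpc6 at 0, and their smooth muscle markers to 835 CPM with Myocd, Pln and Ntn4 at 0. The same lists summed to 301 and 1111 CPM in lipofibroblast or matrix fibroblast-like cells, and the part of mural cells in the adventitial values was not tested. Within the lipofibroblast or matrix class, a dividing cluster of 60 cells had 35.0 CPM of Notch3 and 18.8 of Heyl, and the main cluster of 731 cells 9.94 and 4.36. The 2 myofibroblast-like clusters, of 526 and 132 cells, had 7.87 and 8.48 CPM of Notch3. Hes1 differed less among the 3 classes, at 110.5, 87.4 and 61.4 CPM in adventitial, myofibroblast and lipofibroblast or matrix fibroblast-like cells.

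**Figure D4:**
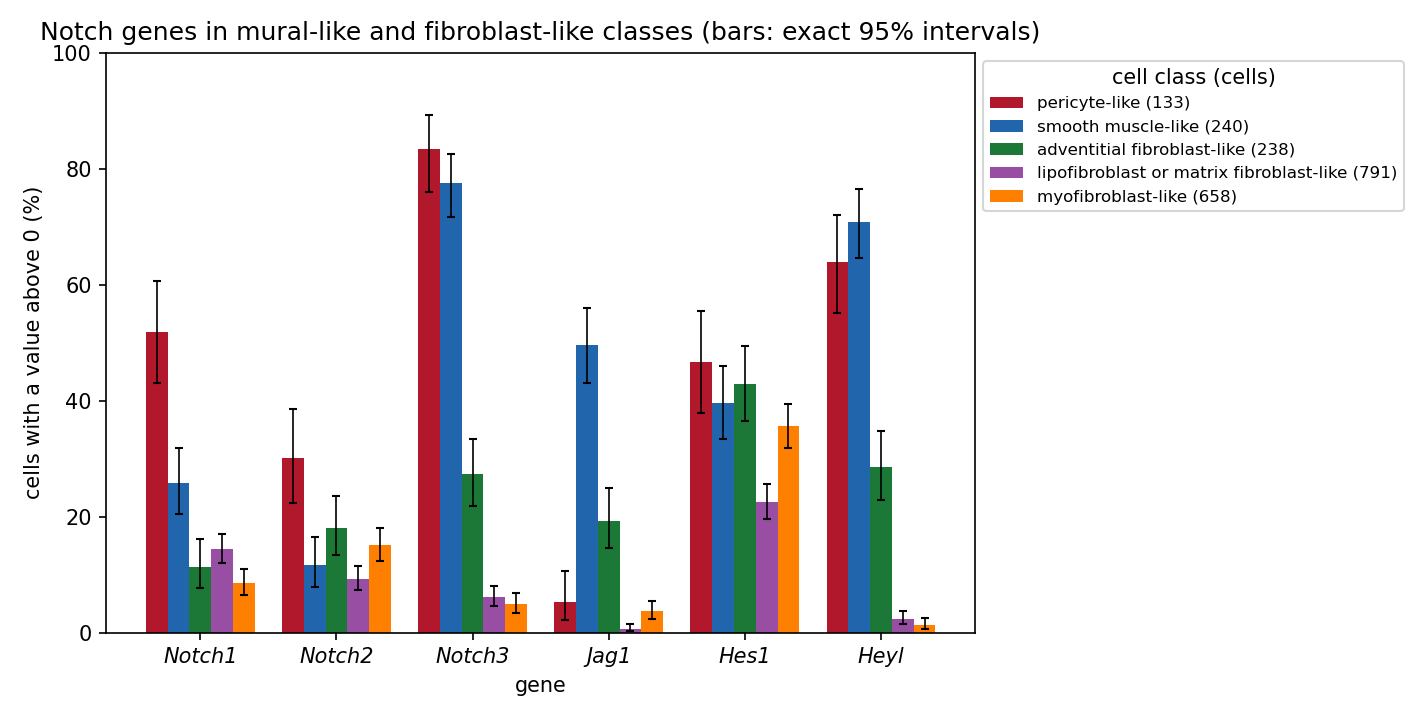
Share of cells with a value above 0 (vertical axis, percent) for 6 Notch genes in 2 mural-like and 3 fibroblast-like classes, with exact 95% intervals from counting error in 1 library. Notch3 and Heyl are high in both mural-like classes and intermediate, at 27.3% and 28.6%, in adventitial fibroblast-like cells, and Jag1 is high in smooth muscle-like cells and low in pericyte-like cells.

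Immune-like cells had a receptor more often than a ligand or a target, and each less often than the whole library. In the whole library the shares were 36.2% for a receptor, 12.8% for a ligand and 23.1% for a target, at a median of 2050 genes per cell. In immune-like cells at least 1 of the 4 receptors had a value in 31.3% (30.1 to 32.4), at least 1 of the 3 ligands in 6.87% (6.27 to 7.52) and at least 1 of the 3 targets in 7.35% (6.73 to 8.01), at a median of 1775 genes per cell. Myeloid-like cells were higher than lymphoid-like cells in Notch2 (1.47), at medians of 1968.5 and 1639 genes per cell. In that comparison, also chosen after the levels were seen, 19.6% of all genes were higher. In comparisons chosen after the levels were seen, non-classical monocyte-like cells were higher than other immune-like cells in Hes1 (2.57) and Notch2 (1.14), beside 5.74% of all genes. Hes1 was present in 29.0% (24.9 to 33.4) of them, and in 7.43% (4.72 to 11.0) of classical monocyte-like cells, which were not shallower (medians of 1963 and 2172.5 genes). Dendritic-like cells had more Jag2 than other immune-like cells (3.21), in 13.4% (7.995 to 20.6) of cells, and more Notch4 (1.61, on 5 summed values), beside 8.59% of all genes. They were lower in Hes1 (-2.18, on 3 summed values), Jag1 (-1.87, on 2) and Notch1 (-1.50, on 12), beside 17.1%. The lymphoid class led by Il5 and Il17a had Jag1 in 14.02% (10.5 to 18.3) of cells, against 0.870% (0.418 to 1.59) of T-like cells. In neutrophil-like cells, the shallowest class with a median of 1009 genes, Notch1 had a value in 13.8% (12.1 to 15.8). Its 379 summed values there came from 194 cells.

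Receptor and ligand often occurred in the same arterial-like cell, where each was also common on its own (91.5% had a receptor and 91.5% a ligand). The separate shares were 84.2% and 50.4% in smooth muscle-like cells and 67.4% and 49.3% in general capillary-like cells. Whether both occurred together more than these shares imply was not tested. At least 1 receptor and at least 1 ligand had a value in 83.0% (69.2 to 92.4) of arterial-like cells, 42.9% (36.6 to 49.4) of smooth muscle-like cells, 35.3% (31.7 to 39.0) of general capillary-like cells, 33.3% (26.8 to 40.4) of aerocyte-like cells and 30.9% (21.1 to 42.1) of venous-like cells. Pericyte-like cells were receptor cells: 96.2% (91.4 to 98.8) had a receptor and 6.02% (2.63 to 11.5) a ligand. Fibroblast-like cells had a receptor in 30.1% (27.9 to 32.4), a ligand in 5.81% (4.74 to 7.03) and a target in 34.6% (32.3 to 36.9). These shares count cells with at least 1 value and depend on depth.

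The other genes of the pathway were read from lists, and genes outside the naming rule that are named with a count were picked after their values were seen. The counts stand beside 10.3% of all genes higher and 19.1% lower in endothelial-like cells, and 10.3% and 17.1% in mural-like cells. Of 7 glycosyltransferases that sugar-coat the receptor, Mfng was the only member higher in endothelial-like cells (3.33), at 270.4 CPM in aerocyte-like cells, and 0 were lower. Lfng, its relative, was highest in non-classical monocyte-like cells at 69.5 CPM. Of 6 genes of ligand endocytosis 1, Neurl1b, was higher in endothelial-like cells and 0 were lower. Of 10 proteases 1 was higher (Aph1a) and 2 were lower (Aph1b and Aph1c), all subunits of the gamma-secretase complex, and these counts are near the shares over all genes. Adam10, which makes the first cut after ligand binding, was highest in lymphatic-like (315 CPM) and venous-like cells (220.3 CPM). Of 9 genes of the nuclear complex 0 passed the threshold in endothelial-like or in mural-like cells. Rbpj itself ranged from 26.7 CPM in alveolar type 2-like cells to 231 CPM in dendritic-like cells. Of 13 co-repressors 1 was higher (Tle1) and 1 was lower (Tle3) in endothelial-like cells, and 0 passed in mural-like cells. Medians of these 5 lists in endothelial-like cells ran from -0.55 (proteases) to 0.36 (co-repressors), beside -0.02 for all genes.

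The lists of feedback genes and further targets had medians of 0.25 and 0.29 in endothelial-like cells, within the range of the 5 other lists, and 0.03 and 0.04 in mural-like cells. Nrarp is in both. Of 11 inhibitors and turnover genes 4 were higher in endothelial-like cells (Numb, Fbxw7, Nrarp and Egfl7) and 1 was lower (Dtx4), beside 10.3% and 19.1% of all genes. Egfl7, a secreted endothelial protein, had 6.15 and stood at 3581 CPM in aerocyte-like cells. Nrarp, a target that feeds back on the receptor, had 3.16 in endothelial-like and 1.94 in mural-like cells. It stood at 246 CPM in arterial-like, 103 in general capillary-like, 75.6 in pericyte-like, 52.6 in smooth muscle-like and 23.9 in aerocyte-like cells. Of 13 measured further targets 4 were higher in endothelial-like cells (Nrarp, Id3, Ccnd1 and Efnb2) and 2 were lower (Hes5 and Cdkn1a). Hes5 was near the floor, at 0.273 CPM in general capillary-like cells and 0 in the other endothelial-like classes. Efnb2, the arterial ephrin ligand, had 4.17 and stood at 1098 CPM in arterial-like and 99.6 CPM in venous-like cells. Ccnd1, a cell cycle gene, had 4.29, and Id3, a repressor of differentiation factors, 2.06. In mural-like cells 4 further targets were higher (Hey2, Nrarp, Id3 and Myc) and 3 lower (Dtx1, Gata3 and Cdkn1a) of 13 measured, beside 10.3% and 17.1% of all genes. Dtx1 was near the floor there, at 1.35 CPM in pericyte-like and 0.701 in smooth muscle-like cells. Hey2, another member of the Hey group, stood at 80.0 CPM in smooth muscle-like, 58.8 in arterial-like and 10.8 in pericyte-like cells. Dll1, another Delta ligand, was highest in venous-like (48.7 CPM) and arterial-like cells (33.1 CPM).

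Genes with the most similar levels across the 25 classes were found by Pearson correlation of log2(CPM + 1). All points share 1 library and differ in depth, so the coefficients are descriptions. Of the genes named below, Ndufa4l2, Cldn5 and Cxcl12 were also among the markers used to name the classes. For Notch3 these were Ppp1r14a (0.88), Aoc3 (0.88) and Rasl12 (0.88), and Heyl itself reached 0.93. For Heyl they were Ndufa4l2 (0.94), Aoc3 (0.93) and Foxs1 (0.93). For Dll4 they were Sox18, Stmn2 and Cldn5 (each 0.91), and for Notch4 Clec14a (0.87), Calcrl (0.84) and Palmd (0.84). For Jag2 they were Rassf9 (0.89), Ece1 (0.87) and Cyp4b1 (0.86), for Hey1 Cxcl12 (0.81), Msx1 (0.80) and Syt15 (0.75), and for Hes1 Galnt18 (0.87), Tjp1 (0.86) and Oaz2 (0.86). Weaker likeness was found for Notch2, with Apobr (0.77), Plekhg3 (0.76) and Asph (0.76), for Notch1, with Bicra, Sipa1 and Ambra1 (each 0.75), and for Jag1, with C2cd2 (0.75), Mkl2 (0.72) and Ccno (0.72). Among the members themselves Dll4 and Jag2 reached 0.83 and Dll4 and Notch4 0.74, and Notch2 ran against Notch4 (-0.69) and Dll4 (-0.67).

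The bulk library of PDGFRa+ cells gave levels per gene length, as TPM, on 171910584 reads. Hes1 had 87.8 TPM, Heyl 30.7, Notch3 21.2, Notch2 9.44, Notch1 6.80, Hey1 6.33, Jag1 4.90, Notch4 2.22, Jag2 0.75 and Dll4 0.54. Hes1, Heyl and Notch3 were at or above 10 TPM, which 7923 of the 16906 listed genes were. The order of the receptors was thus Notch3, Notch2, Notch1 and Notch4. Counting error was small: Notch3 had 86.7 CPM with an exact Poisson 95% interval of 85.3 to 88.1, and Dll4 0.931 CPM with 0.792 to 1.09. Fewer cells with a gene and less of its RNA in each cell cannot be told apart in a bulk sample.

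Set beside the fibroblast-like classes by rank among all genes of each table, Notch3 stood at or above 67.5% of genes in the bulk library. In adventitial, lipofibroblast or matrix and myofibroblast-like cells it stood at or above 83.1%, 53.8% and 46.1%, and in pericyte-like cells 98.3%. Heyl stood at 74.2% in the bulk library, at 87.7%, 42.9% and 33.5% in these 3 fibroblast-like classes and at 97.1% in smooth muscle-like cells. Hes1 stood at 89.8% in the bulk library and at 92.4%, 84.9% and 89.0% in the same classes. Dll4, at 22.2%, lay in the low range it had in them (29.4%, 18.6% and 25.2%). The ranks come from different assays and were not tested against each other.

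Markers of other cells were measured in the bulk library beside these values. Pdgfra stood at 54.0 TPM. All 13 pericyte markers were listed, from 1.58 to 112 TPM and 10 of them at 10 TPM or more, with Cspg4 at 10.2, Rgs5 at 30.2 and Higd1b at 2.07 TPM. Of 12 smooth muscle markers 11 were at 10 TPM or more, and Myh11 stood at 178 TPM. In the single-cell library 11 of these 12 were also above 10 CPM in myofibroblast-like cells, and 8 of the 13 pericyte markers. Of 9 pan-endothelial markers 3 were at 10 TPM or more, with Pecam1 at 3.87 and Cdh5 at 3.21 TPM. Of 6 erythroid markers 5 were at 10 TPM or more, and together the 6 had 40637 TPM of 1000000, with 1 of them at 16600 TPM, the highest value of the table. The part of mural, endothelial or erythroid cells in the bulk levels of Notch3, Heyl and the other members was not tested.

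**Figure D5:**
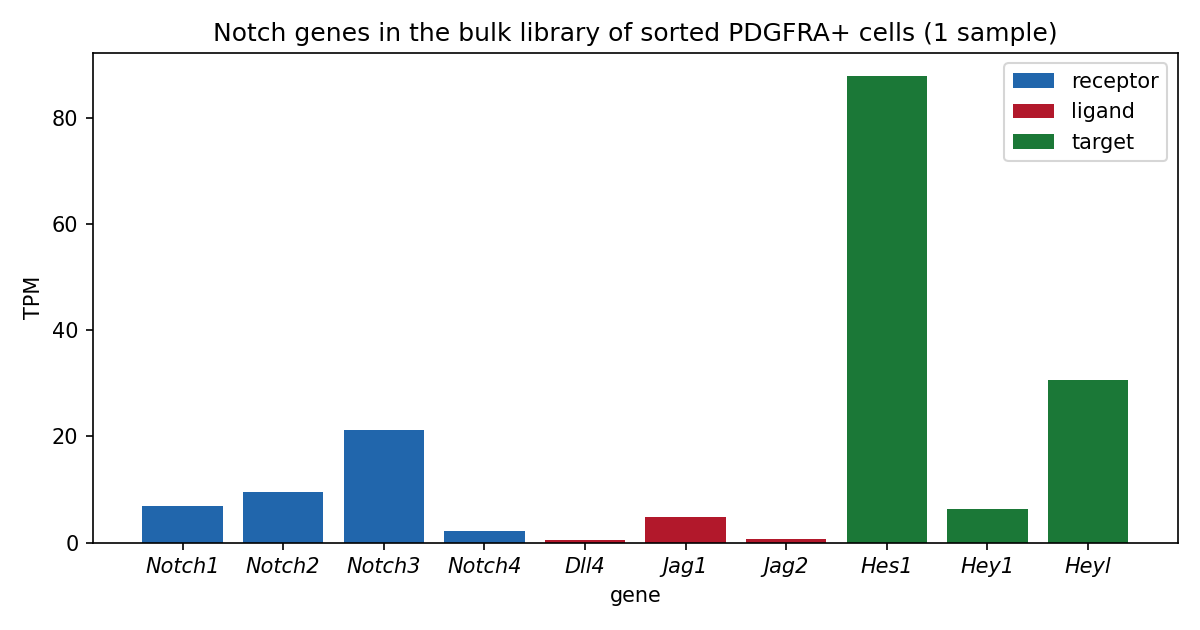
TPM (vertical axis) of the 10 Notch genes in the single bulk library of sorted PDGFRa+ cells, coloured as receptors, ligands and targets, with no replicate and so no error bar. Hes1 (87.8), Heyl (30.7) and Notch3 (21.2) stand above the other 7 genes, and the 3 ligands are at 4.90 or less.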

How the data were processed

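Per the submitters' processing notes, Cell Ranger 5.0 and Seurat 3.2.2 were used for the single-cell sample; for the bulk sample the notes name mm10, HISAT2, featureCounts, Trim Galore and DESeq2. The single-cell table as deposited is treated here as a score. Its entries are whole numbers whose cell totals hardly vary, from which a correction of UMI values for depth was inferred; they are not raw counts. In the bulk table the authors deposited an expected count for each gene (15.9% of values not whole) and TPM; CPM here are those counts per 1000000.

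Cells needed 500 detected genes and at most 10% mitochondrial values, and 461 predicted doublets were removed (scanpy 1.11.5, scrublet). Clustering used 2000 variable genes without Notch pathway genes, 30 components and 15 neighbours. Clusters were named from marker lists, with details of the naming rule set after the data were seen. A comparison used genes with at least 20 summed values, a pseudocount of 1 CPM and a log2 threshold of 1. Ratios were checked on simulated data.

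Named were all 10 members, up to 3 genes per pathway list with the highest CPM in any class (at least 100 summed values), and the 3 most similar genes per member. The members and lists were chosen with earlier results of these data known. Alternatives changed the cell filter, doublets, resolution, pseudocount, value minimum, cell weighting and the cells compared against.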

Additional observations from a re-analysis of the deposited data

How the results depend on the processing

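Counts of members higher in the 4 cell families stayed within 1.5 times under every alternative run, including leaving out the unnamed cluster or the immune-like cells (both added after seeing the data), where mural-like cells had 4 members higher with Notch2 added at 1.05. Counts of lower members also stayed within 1.5 times, except that with a pseudocount of 10 CPM they fell from 6 to 1 in fibroblast-like and from 2 to 0 in mural-like cells, and that mural-like cells had 4 lower when immune-like cells were left out. Leaving out immune-like cells also raised the count of lower members in fibroblast-like cells from 6 to 9 of 10, at the limit of that range. Arterial-like or venous-like against capillary-like cells gave 1 member in place of 2 with the stricter cell filter, doublets kept, a pseudocount of 10 CPM or at least 100 summed values. Aerocyte-like against general capillary-like cells gave 1 in place of 2 at resolution 2, with a pseudocount of 10 CPM or at least 100 summed values. Myofibroblast-like against other fibroblast-like cells gave 4 with the stricter filter and 1 with a pseudocount of 10 CPM, in place of 2. With every deposited cell, arterial-like and venous-like cells were not named apart and 2 of 10 members kept their highest class. By CPM, 6 members reached 10 in the bulk library, against 3 by TPM. Of 753 log2 ratios recomputed, 720 kept their side of the threshold, 16 passed it anew, 17 dropped below it and 0 changed sign while called. Of 52 shares 47 moved by less than their interval. The comparison of arterial-like or venous-like with capillary-like cells was not run with every deposited cell or at resolution 0.5. No paired analysis was possible because each group holds 1 sample. Differences resting on few summed values, in classes of under 100 cells, are limited by depth.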

Other observations

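Of 463 epithelial-like cells 24.4% (20.6 to 28.6) had a value of at least 1 receptor, 23.8% (19.95 to 27.9) of at least 1 ligand and 55.9% (51.3 to 60.5) of at least 1 target. Ciliated-like cells, 24 in number, had Jag1 at 161 CPM in 66.7% of cells (44.7 to 84.4) and Hes1 at 373 CPM in 79.2% (57.8 to 92.9). Alveolar type 1-like cells, the thin gas-exchange cells, had Hes1 at 177 CPM in 59.4% (40.6 to 76.3), Jag2 at 37.5 CPM on 7 summed values, and Notch1 in 0 of 32 cells, which allows up to 9.38% by the limit of 3 cells. Alveolar type 2-like cells, the surfactant producers, had Hes1 at 151 CPM in 53.8% of 407 cells (48.8 to 58.7) and Jag1 at 22.6 CPM in 13.02% (9.91 to 16.7). They also had the highest level of Dlk1, a non-canonical Notch ligand, at 664 CPM. Mesothelial-like cells, 43 in number, had Hes1 at 59.3 CPM and Notch2 at 29.7 CPM.

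Within the basophil or mast cell-like class, a cluster of 23 cells led by Tpsb2, Mcpt4 and Cma1 had Hes1 at 434 CPM, and the cluster of 130 cells led by Mcpt8 and Prss34 had 18.8 CPM. In the bulk library Dlk1 stood at 428 TPM, above each of the 10 members.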
